A study of Mus musculus with 5 samples.

Results

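The 9 genes described here are factors that mark the embryonic ducts from which male accessory glands grow: Pax2, Pax8, Emx2 and Cdh16 for the Wolffian duct, Foxa1, Foxa2, Trp63 and Shh for the urogenital sinus, and Gata3 for both. They were taken by symbol from the 51912 genes listed in each library's table, and all 9 were found. RNA came from flash-frozen dorsolateral prostate, as labelled, of 5 male mice aged 7 months, each a biological replicate according to the series. All mice were homozygous for a floxed growth hormone receptor gene (Ghrflox/flox), and all carried SV40 C3(1) T-antigen+/0, a viral oncogene under the prostate-directed C3(1) promoter. All received tamoxifen at 250 mg/kg on 5 days, with tissue taken 1 month after the last dose. The 3 Ghr deletion mice also carried ROSA26Cre-ERT2+/0, a tamoxifen-activated recombinase at a widely expressed locus. The labels of the 2 tamoxifen control mice list no Cre, so effects of Cre and of Ghr loss cannot be told apart. Oncogene and tamoxifen were common to both groups.

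The Wolffian duct is the mesodermal duct of the embryo that becomes the epididymis, vas deferens and seminal vesicle in males. The urogenital sinus is of endodermal origin and gives the prostate, the urethra and the lining of the bladder. These organs lie against each other in the adult, and their epithelia keep some of the transcription factors of their origin.

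No member differed between the groups beyond the spread of the libraries. The libraries themselves differed widely, and whether the members grouped by origin was not tested. Control replicate 1 had the lowest Pax8, Emx2, Cdh16 and Shh of all libraries, control replicate 2 had the highest Pax8 and Cdh16, and deletion replicate 3 had the highest Foxa1, Trp63 and Shh. These rankings were the same under TMM scaling, DESeq2 size factors, CPM of the raw total, and TPM. Foxa2 was nearly undetected.

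Total counts ran from 13812454 to 47656212 per library. Ghr itself stood at 14.4 and 31.3 CPM (counts divided by the library size after edgeR's TMM adjustment, on the usual CPM scale) in control replicates 1 and 2 and at 8.13, 20.9 and 12.1 CPM in deletion replicates 1 to 3, so the groups overlapped; the count covers the whole gene, not the deleted part. The defining markers of the labelled tissue were scarce: for Pbsn, which encodes probasin, control replicate 1 held 411 counts and the rest 1 to 8, and for Hoxb13 the range was 0 to 13. The 9 genes listed as prostate markers summed to 4457 CPM in control replicate 1, of which Spink1 made 4390. Elsewhere they summed to 15.8 to 161 CPM, most of it Mmp7 in control replicate 2 (126) and deletion replicate 3 (159). Seminal vesicle markers, 9 secretory genes, took 35.6% of counts in control replicate 1, 27.4% and 28.7% in deletion replicates 1 and 2, and 2.78% and 1.43% in control replicate 2 and deletion replicate 3. The deletion shares rested on Svs2, Svs5 and Pate4. So did most of the share of control replicate 2, where Pate4 alone read 13088 of a summed 18567 CPM. The 6 others were Svs1, Svs3a, Svs3b, Svs4, Svs6 and Spinkl. Each was lower in every deletion library than in either control, as were 10.2% of all tested genes. DESeq2 called all 6 lower (it called 0.968% of all genes, in either direction), while edgeR called 0 of them. The controls also lay far apart, with Svs1 at 78234 CPM in control replicate 1 and 171 CPM in control replicate 2. Spink1, listed above as a prostate marker, was like these 6 genes highest in control replicate 1 and lower in every deletion library than in either control. It read 4390 and 11.2 CPM in the controls and 0.0313 to 0.421 CPM in the deletion libraries. Which gland its RNA came from was not tested. Akr1b7 and Crisp1, markers of the vas deferens and epididymis, summed with their list to 1603, 5148 and 4359 CPM in control replicate 2 and deletion replicates 1 and 2, and to 6.20 and 34.3 CPM in control replicate 1 and deletion replicate 3. The 7 other genes of that list had 0 to 6 counts in every library. Urothelium markers reached a summed 187 CPM in deletion replicate 3 against 25.2 to 80.0 elsewhere, where nearly all of it was Upk1b, and those 4 libraries had 0 counts of the uroplakin gene Upk3a. Luminal epithelium markers, of which Krt18 and Epcam had the highest mean TPM, summed to 906 to 1946 CPM. In bulk tissue, fewer cells of a type and less RNA per cell cannot be told apart.

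Among the Wolffian genes, Pax2 encodes a paired-box transcription factor required for the nephric duct. It lies on the plus strand of chromosome 19 at 44756045 to 44837871 (GRCm38). Control replicates 1 and 2 gave 7.06 and 5.37 CPM, and deletion replicates 1, 2 and 3 gave 8.45, 4.73 and 5.96 CPM; the libraries are listed in this order throughout. Its overlapping genes Gm20395 and 1700039E22Rik, which share no exonic bases with it, had 0 to 17 counts. The groups overlapped around means of 6.22 ± 1.19 (SD, n = 2) and 6.38 ± 1.89 (SD, n = 3), and the highest library stood 1.79-fold over the lowest. The log2 fold change, deletion minus control, was 0.036 (SE 0.431, 95% interval -0.996 to 1.07; edgeR, adjusted p = 0.999).

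Pax8, a paired-box factor that acts beside Pax2 in the duct, lies on the minus strand of chromosome 2 at 24420560 to 24475599. Its control values were 1.58 and 42.3 CPM, its deletion values 26.4, 19.5 and 8.09 CPM. The controls were the lowest and the highest of the 5 libraries, 26.7-fold apart, and enclosed all deletion libraries (means 21.9 ± 28.8, SD, n = 2, and 18.0 ± 9.25, SD, n = 3). Its log2 fold change stood at -0.28 (SE 1.13, 95% interval -2.99 to 2.43; adjusted p = 0.997). Leaving out control replicate 2 gave 3.50, and leaving out control replicate 1 gave -1.23. Fractional counts showed reads shared with Gm13415, a gene on the opposite strand with 367 exonic bases in common: the 2 counts summed to whole numbers in 5 of 5 libraries, within 0.02. Summed, the pair had 48 and 1146 control counts and 914, 696 and 644 deletion counts, and in CPM of the sums the order of the libraries was the same.

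Emx2, a homeobox factor needed to keep the Wolffian duct, lies on the plus strand of chromosome 19 at 59458372 to 59465357. Control libraries held 5.13 and 50.6 CPM, deletion libraries 81.6, 47.0 and 56.0 CPM. Control replicate 1 alone was low, and the other control fell between deletion replicates 2 and 3. With means of 27.9 ± 32.2 (SD, n = 2) and 61.5 ± 17.9 CPM (SD, n = 3), the log2 fold change came to 1.14 (SE 0.857, 95% interval -0.92 to 3.20; adjusted p = 0.995), 3.58 without control replicate 2 and 0.28 without control replicate 1. The divergent antisense gene Emx2os, which shares 264 exonic bases with it, had control values of 1.03 and 14.0 CPM and deletion values of 25.4, 4.01 and 19.5 CPM. It was likewise lowest in control replicate 1 and highest in deletion replicate 1, but its second-lowest library was deletion replicate 2.

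Cdh16, the kidney-specific cadherin that joins epithelial cells of the nephric lineage, lies on the minus strand of chromosome 8 at 104601911 to 104624396. Values were 3.12 and 35.7 CPM for the controls, 7.89, 4.57 and 7.37 CPM for the deletion libraries. Here control replicate 2 stood apart from the 4 others, and the means were 19.4 ± 23.1 (SD, n = 2) and 6.61 ± 1.78 (SD, n = 3). The resulting log2 difference was -1.55 (SE 0.868, 95% interval -3.63 to 0.52; adjusted p = 0.995), -2.43 without control replicate 1 and 1.08 without control replicate 2. Of the 8 kidney markers, Umod, Slc12a1, Slc34a1, Nphs1 and Slc22a6 had 0 counts in all libraries. The list summed to 0.0928 to 0.350 CPM in 4 libraries and to 24.4 CPM in deletion replicate 2, where Aqp2, a water channel of the collecting duct that the vas deferens also makes, had 770 counts (Slc12a3 had 2 to 9 in the 5 libraries). Cdh17, the nearest relative of Cdh16, was named after its values were seen: it had 0 and 25.2 CPM without Cre and 1.93, 5.01 and 0.0928 CPM with it, also highest in control replicate 2.

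Gata3, a zinc-finger factor of the nephric duct, the urothelium and T cells, lies on the minus strand of chromosome 2 at 9857078 to 9890034. It was the most abundant member per length in both controls (6.81 and 35.6 TPM, a unit corrected for gene length). In CPM the controls were at 103 and 64.0, and the deletion libraries at 75.9, 39.8 and 65.7. The groups overlapped (means 83.3 ± 27.2, SD, n = 2, and 60.5 ± 18.6, SD, n = 3), and the log2 fold change stood at -0.46 (SE 0.376, 95% interval -1.36 to 0.44; adjusted p = 0.995). Control replicate 1 was highest on this scale but lowest in TPM, at 6.81 against 13.1 to 55.0, so its place depended on the scaling. T cell markers, 8 in all and led by Cd3g and Cd8a, summed to 6.72 and 13.2 CPM for controls, then 2.66, 1.38 and 4.51, so every deletion library was below both controls. Of the 7 tested, 7 were lower and 3 did not overlap (10.2% of all genes did not overlap and were lower), and 0 passed after adjustment in edgeR or DESeq2. Per length the list lay below Gata3 in each library, at 0.84 to 9.83 TPM, and its part in the Gata3 levels was not tested. Gata3 overlaps Gm13256, which had 0 to 5 counts, 9230102O04Rik, with 77 exonic bases in common, and 4930412O13Rik, with none.

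**Figure D1:**
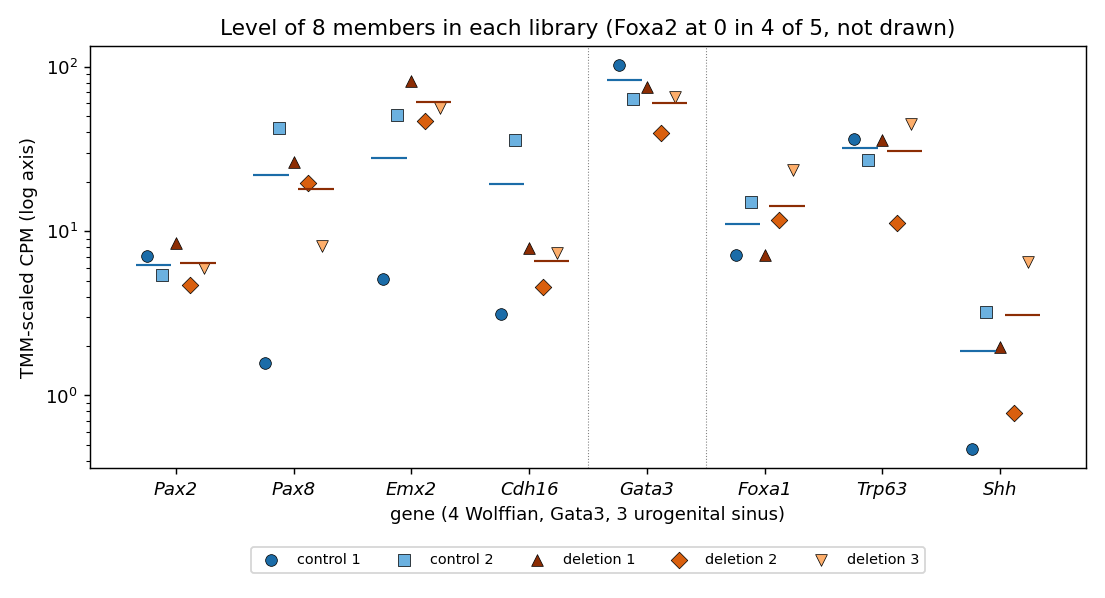
TMM-scaled CPM on a log axis for the 8 detected members, 1 point per library; short lines are the means of the 2 control (blue) and 3 deletion (brown) libraries. Pax8, Emx2, Cdh16 and Shh spread 11.4- to 26.7-fold with control replicate 1 at the bottom, while Pax2 spreads 1.79-fold.

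Of the urogenital sinus genes, Foxa1 encodes a forkhead factor that opens chromatin in prostate epithelium and is also made in urothelium. It lies on the minus strand of chromosome 12 at 57540628 to 57546916. The controls held 7.14 and 15.0 CPM (mean 11.1 ± 5.56, SD, n = 2), the deletion libraries 7.11, 11.8 and 23.7 CPM (mean 14.2 ± 8.54, SD, n = 3). Control replicate 1 and deletion replicate 1 were about equally low, and deletion replicate 3 was highest. Foxa1 had a log2 fold change of 0.36 (SE 0.598, 95% interval -1.07 to 1.79; adjusted p = 0.995) and -0.24 without deletion replicate 3.

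Foxa2, its relative that marks the budding sinus epithelium and neuroendocrine prostate cancer, lies on the minus strand of chromosome 2 at 148042877 to 148046969. A single count, 1 in all, came from deletion replicate 2. For the 4 libraries at 0, the limit that a count of 0 allows, 3 counts, is 0.0557 to 0.145 CPM. It was the 1 member short of the low-count filter and was not tested. Neuroendocrine markers, 8 in all, summed to 0.128 and 3.39 CPM for controls and 1.40, 1.97 and 3.86 CPM after deletion, with Scg2 and Syp the most abundant per length and Chga at 0 to 4 counts. Foxa3, the last of the FOXA genes, was at 0 to 0.0701 CPM.

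Trp63, which encodes the p53 relative that basal cells of stratified and glandular epithelia depend on, lies on the plus strand of chromosome 16 at 25683763 to 25892102. Its count covers 8 annotated transcripts, so isoforms with and without the transactivation domain were not separated. Its levels were 36.6 and 27.2 CPM for controls (mean 31.9 ± 6.66, SD, n = 2), then 35.9, 11.2 and 44.9 CPM for deletion libraries (mean 30.7 ± 17.4, SD, n = 3). The 2 extremes were both deletion libraries, replicate 2 at the bottom and replicate 3 at the top. For Trp63 the log2 fold change came to -0.056 (SE 0.564, 95% interval -1.40 to 1.29; adjusted p = 0.999).

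Shh, the secreted signal by which sinus epithelium acts on its mesenchyme, lies on the minus strand of chromosome 5 at 28456815 to 28467256. Control levels were 0.471 and 3.24 CPM (mean 1.86 ± 1.96, SD, n = 2), deletion levels 1.96, 0.783 and 6.53 CPM (mean 3.09 ± 3.04, SD, n = 3). They rest on 11.4 to 352 counts. Shh had a log2 fold change of 0.75 (SE 1.11, 95% interval -1.90 to 3.39; adjusted p = 0.995) and -0.45 without deletion replicate 3. Reads were shared with the opposite-strand genes Gm26894 and 9530036O11Rik, and the 3 counts summed to whole numbers in every library: 21 and 115 for the controls, then 94, 47 and 505.

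Across the whole table, the edgeR quasi-likelihood test called 0 of 18615 genes (0%) at an adjusted p under 0.05. At an unadjusted p under 0.05 there were 915 (4.92%), DESeq2 called 166 genes (0.968%) and limma-voom 0. Of the 8 tested members, 0 passed in any of these tests, and 0 had an unadjusted p under 0.05 in edgeR, the smallest being 0.119 for Cdh16. All 8 overlapped between the groups in CPM; over all tested genes, groups did not overlap for 19.6% (9.43% higher with the deletion, 10.2% lower). Exact two-sided permutation tests of log2 CPM gave p = 0.2 for Emx2 and 0.5 to 1 for the other 7 (all 1 after adjustment over the 8), where 0.1 is the smallest p that 2 against 3 libraries allow. Each interval above reaches beyond a 2-fold change in at least 1 direction. With control replicate 1 as the only control, Pax8, Emx2, Cdh16, Gata3 and Shh did not overlap (56.2% of all genes), and edgeR called 48 genes (0.241%), 0 of them members. With control replicate 2 as the only control, Pax8 and Cdh16 did not overlap (43.2%). Without deletion replicate 2, Emx2 was the 1 member that did not overlap (30.3%). Without control replicate 1 and deletion replicate 3 together, the 2 libraries lowest in vas deferens and epididymis markers, Pax8, Cdh16, Foxa1 and Shh did not overlap (67.8%), all lower with the deletion, and edgeR called 85 genes (0.459%), again 0 members.

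**Figure D2:**
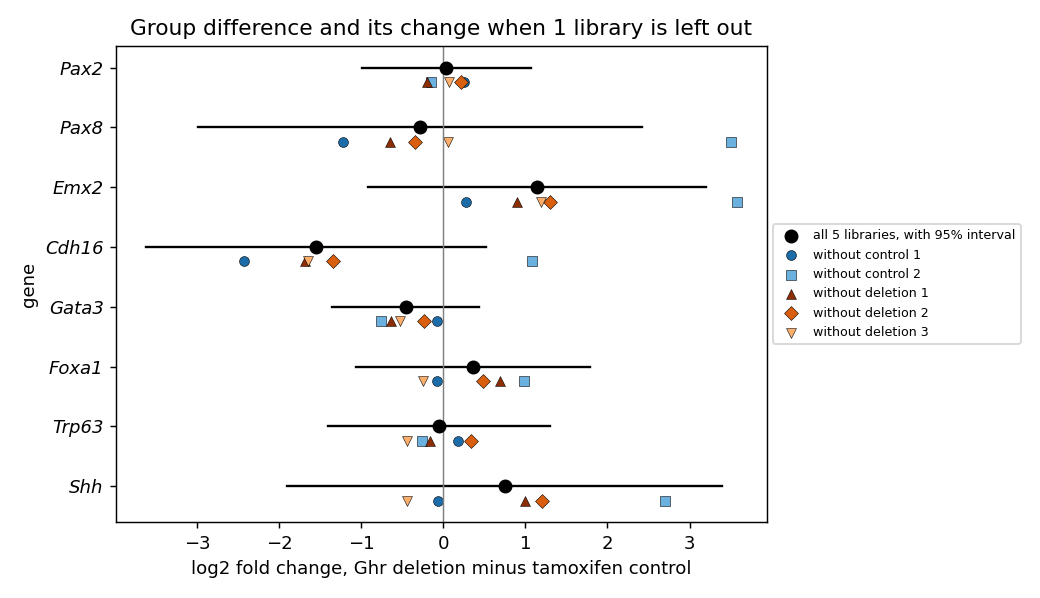
Log2 fold change of each tested member (black, with its 95% interval) and the value when each library in turn is left out (coloured). Leaving out control replicate 2 moves Pax8 to 3.50, Emx2 to 3.58 and Shh to 2.71, while Pax2 stays between -0.20 and 0.25.

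Ratios of TPM within a library are per length and do not depend on the scaling between libraries. The 4 Wolffian genes together stood at 0.843 times the 4 urogenital sinus genes in control replicate 1, 5.74 times in control replicate 2, and 6.97, 8.60 and 2.72 times in deletion replicates 1, 2 and 3. Control replicate 1 was the 1 library in which the sinus genes were in excess. Emx2 made up 6.95% of the 9 members' summed TPM in control replicate 1 against 27.3% in control replicate 2, and 49.9%, 50.6% and 43.1% after deletion. Gata3 held 66.6% in control replicate 1 and 24.7% to 29.2% elsewhere. Emx2 to Gata3 was 0.104 and 0.935 among controls, then 1.92, 2.05 and 1.58. All deletion libraries were above both controls for that ratio, which was picked after its values were seen and was not tested. Pax8 to Pax2, the paired-box partners, was 0.222 and 8.58 among controls, then 3.11, 4.47 and 1.48, so there the controls were again the extremes.

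**Figure D3:**
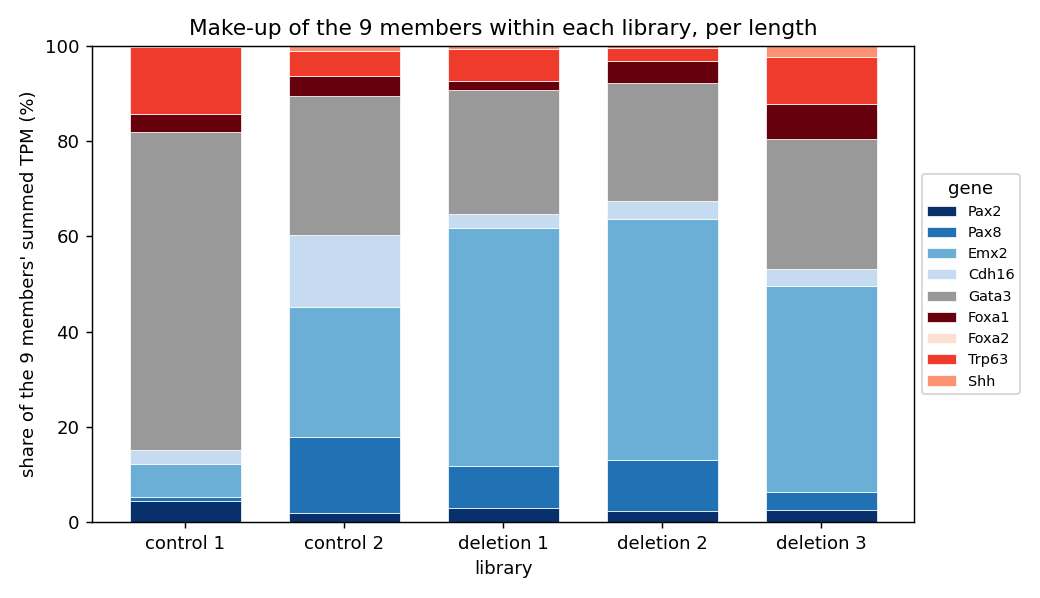
Share of each of the 9 genes in their summed TPM, 1 stacked bar per library, in percent from 0 to 100; blues are Wolffian genes, grey is Gata3 and reds are urogenital sinus genes. Gata3 fills 66.6% of the bar of control replicate 1, and Emx2 fills 43.1% to 50.6% in the deletion libraries.

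By TPM within each library, Gata3 and Emx2 were the top members in 4 of 5 libraries, and in control replicate 1 Trp63 (1.44) stood above Emx2 (0.71). Shh and Foxa2 were last in every library. Between them the order changed from library to library: Cdh16 stood above Trp63 in control replicate 2, at 18.6 against 6.57 TPM, and below it in deletion replicate 1, at 1.99 against 4.73. The spread of log2 CPM over the 5 libraries was 1.34 to 1.86 (SD) for Pax8, Emx2, Shh and Cdh16, against a median of 0.556 over all tested genes. It was 0.328 for Pax2 and 0.494 for Gata3, below that median, and 0.738 and 0.788 for Foxa1 and Trp63. Among pairs of members, the profiles of Pax2 and Gata3 were the closest, with a root mean square difference of 0.284 in centred log2 CPM. Those of Pax8 and Trp63 were the farthest apart, at 2.03. Members with little spread lie close to each other on this measure.

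Upstream DNA is shown for 3 members whose levels the account turns on: Pax8, which had the widest spread, Gata3, which led in both controls, and Foxa1, which was highest in deletion replicate 3. Each line holds the 250 bases before a RefSeq start on GRCm38.p6, 5′ to 3′ on the gene's own strand, here the minus strand for all 3: chr2:24475600-24475849 for Pax8, chr2:9878601-9878850 for Gata3 and chr12:57546112-57546361 for Foxa1. Capitals mark a match to the forkhead motif.
Pax8: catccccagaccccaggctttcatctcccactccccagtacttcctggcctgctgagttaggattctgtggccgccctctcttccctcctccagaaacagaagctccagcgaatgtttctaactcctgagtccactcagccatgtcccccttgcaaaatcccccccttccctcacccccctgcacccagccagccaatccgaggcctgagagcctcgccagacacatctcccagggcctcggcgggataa
Gata3: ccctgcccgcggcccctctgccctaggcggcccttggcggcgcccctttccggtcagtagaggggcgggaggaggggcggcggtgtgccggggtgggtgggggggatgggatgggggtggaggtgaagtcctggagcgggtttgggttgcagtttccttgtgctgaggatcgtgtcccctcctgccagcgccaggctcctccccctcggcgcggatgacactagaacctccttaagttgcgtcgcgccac
Foxa1: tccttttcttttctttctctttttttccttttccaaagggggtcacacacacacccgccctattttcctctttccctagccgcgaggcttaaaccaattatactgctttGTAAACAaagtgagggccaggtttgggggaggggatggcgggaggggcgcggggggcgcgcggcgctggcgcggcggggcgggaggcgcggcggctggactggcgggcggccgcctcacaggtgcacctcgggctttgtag
RefSeq windows were found for 6 of the 9 members. Both strands of each 300-base window (250 before to 50 after the start) were searched for the forkhead motif GTAAACA, the GATA motif AGATAA, the homeodomain core TAATTA, the GLI motif GACCACCCA and the TATA box TATAAA. The Foxa1 window held the forkhead motif, beginning at -141 from the start, as did 3.65% of all 32851 windows. The Emx2 window, which lies in annotated exon and is not printed, held the homeodomain core, as did 5.29%. A Foxa2 window held the GATA motif at -183 (11.2% of all windows) and the TATA box at -208 on the opposite strand (13.6%). No window of Pax2, Pax8 or Gata3 held any of the 5. No match overlapped another. GC content of the printed stretches was 60.4%, 70.0% and 62.0%.

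Other genes of the Wolffian programme were read from a list of 17, of which 14 were tested. Their median log2 fold change was 0.10, beside 0.0045 over all tested genes, and 9 of 14 were above 0 (50.4% of all genes). At an unadjusted p under 0.05 there was 1 higher (1.69% of all genes) and 0 lower (3.23%), and 0 passed after adjustment in edgeR or DESeq2. Groups did not overlap for 4 higher (9.43% of all tested genes) and 1 lower (10.2%). Ret, the GDNF receptor kinase that drives branching of the ureteric bud from this duct, had control levels of 21.0 and 14.4 CPM and deletion levels of 25.6, 102 and 42.5 CPM. All deletion libraries lay above both controls, with replicate 2 far above the rest (log2 fold change 1.68, SE 0.618; edgeR, adjusted p = 0.991). Spry1, a feedback inhibitor of Ret signalling and the gene of highest mean TPM in the list, read 8.04 and 12.0 CPM against 13.9, 52.7 and 16.1, and Etv5, a transcription factor that Ret induces, 4.88 and 11.6 against 25.6, 30.9 and 8.82. Deletion replicate 2 was highest for all 3, and also for Etv4, at 7.14 CPM against 0.941 to 3.22. In the same library Gfra1, the co-receptor that presents GDNF to Ret, was lowest at 0.407 CPM against 5.40 or more. Without deletion replicate 2 the fold change of Ret was 0.94 and that of Spry1 0.59. Lhx1, a factor that starts the duct in the embryo, had a count in control replicate 2 only, at 0.0484 CPM.

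The prostate bud and urogenital sinus list had 15 of 18 genes tested, with a median log2 fold change of -0.32, 7 higher and 8 lower. At an unadjusted p under 0.05, 2 were lower (3.23% of all genes) and 0 higher (1.69%), and 0 passed after adjustment in edgeR or DESeq2. Groups did not overlap for 2 lower (10.2% of all tested genes) and 0 higher (9.43%). Sox9, which marks outgrowing prostate buds, was at 26.4 and 31.9 CPM for controls and 11.4, 5.36 and 17.2 CPM for deletion libraries, with every deletion library below both controls (log2 fold change -1.36, SE 0.490; edgeR, adjusted p = 0.991). Fgf10, the mesenchymal growth factor of bud outgrowth, read 84.2 CPM in control replicate 1 and 1.94 to 9.99 CPM elsewhere. Its log2 fold change of -3.09 was -0.41 without that library. Fgfr2, its epithelial receptor and the gene of highest mean TPM in the list, overlapped between groups at 73.9 and 175 against 180, 125 and 175 CPM. Pparg and Grhl3, factors of urothelial differentiation named after their values were seen, read 9.73 and 6.18 CPM in deletion replicate 3, against at most 0.629 and 0.140 CPM elsewhere. Wnt10b, an early bud signal, was also highest there, at 3.82 CPM against 0.171 to 1.12. That library thus held the highest Foxa1, Trp63, Shh, Pparg, Grhl3, Wnt10b and uroplakin levels; the part of urothelium in the first 3 was not tested.

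**Figure D4:**
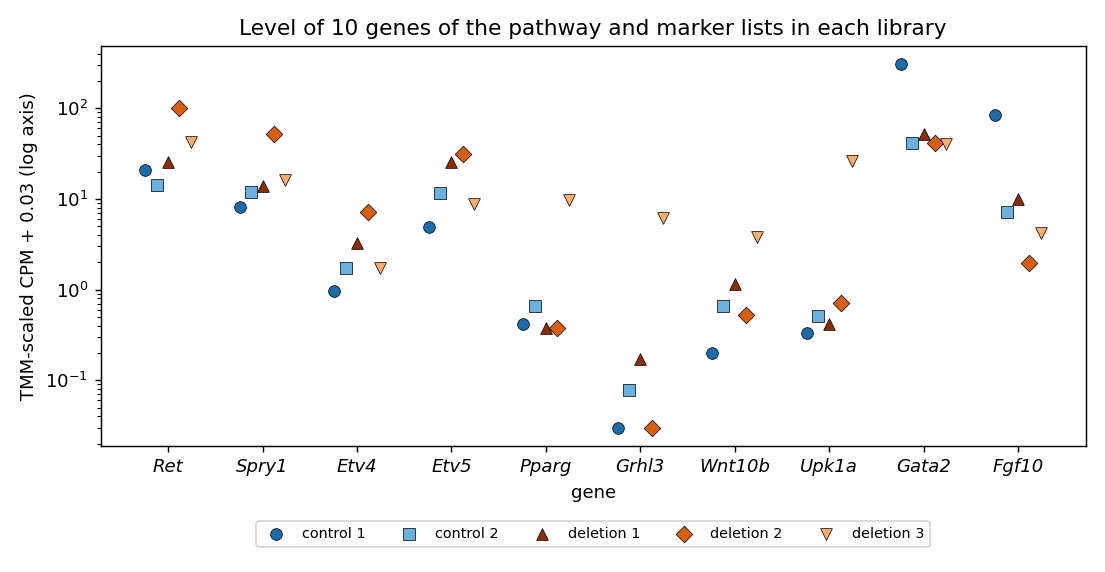
TMM-scaled CPM plus 0.03 on a log axis for 10 list genes, 1 point per library, chosen for display after their values were seen. Deletion replicate 2 is highest for Ret, Spry1, Etv4 and Etv5, deletion replicate 3 for Pparg, Grhl3, Wnt10b and Upk1a, and control replicate 1 for Gata2 and Fgf10.

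Hedgehog signalling runs from the ligand through the receptor Ptch1, which restrains Smo, to the GLI factors, and Ptch1, Gli1 and Hhip are themselves induced by it. All 14 genes of the pathway list were tested, with a median log2 fold change of 0.021, 8 higher and 6 lower. After adjustment 0 passed in edgeR or DESeq2, and 1 (Boc, lower, 3.23% of all genes) had an unadjusted p under 0.05 in edgeR. Groups did not overlap for 1 higher (9.43% of all tested genes) and 1 lower (10.2%). Ptch1 gave 26.7 and 42.2 CPM without Cre, 46.9, 74.1 and 54.8 CPM with it, all above both controls (log2 fold change 0.77, SE 0.347; edgeR, adjusted p = 0.991). Its highest library, deletion replicate 2, was the second lowest for Shh. Gli1 read 1.88 and 2.66 CPM against 1.54, 0.0940 and 1.93, and Hhip, a decoy that binds the ligand, 20.4 and 25.8 against 23.4, 2.32 and 7.44. Both were lowest in deletion replicate 2. The 6 smooth muscle markers, Acta2 and Tagln among them, mark the stroma where these responders are made. They came to 1197 CPM in deletion replicate 2 and to 1785 to 4405 CPM elsewhere. The part of stroma in the responder levels was not tested. Boc, a co-receptor, read 35.4 CPM in control replicate 1 and 3.19 to 10.7 elsewhere, and without that library its fold change was -0.51. Disp1, which releases the ligand, was at 3.89 and 2.66 against 2.63, 0.877 and 2.08 CPM, with the deletion libraries lower but one nearly equal to control replicate 2. Cdon, another co-receptor and the gene of highest mean TPM in the list, read 21.7 and 85.6 against 53.8, 77.5 and 149 CPM. The sister ligands Ihh and Dhh were at 0 to 0.290 CPM, and in TPM below Shh in every library.

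Genes of the basal programme that p63 maintains were read from a list of 21, with 20 tested. The median log2 fold change was -0.21, with 14 lower and 6 higher. At an unadjusted p under 0.05, 2 of the 20 were lower (Krt14, Krt15; 3.23% of all genes) and 1 higher (Fat2; 1.69%), and 0 passed after adjustment in edgeR, while DESeq2 called 1, Krt15 (0.968% of all genes). Krt5, the classic basal keratin, was at 26.4 and 14.0 CPM for controls, 8.97, 2.73 and 33.2 CPM for deletion libraries. It shared its lowest and highest libraries, deletion replicates 2 and 3, with Trp63. Fat2, a large cadherin of the Fat family, was at 39.9 and 34.7 against 83.5, 48.5 and 76.3 CPM, with every deletion library above both controls (log2 fold change 0.90, SE 0.330; edgeR, adjusted p = 0.991). Krt15, a keratin of basal progenitors, was at 8.90 and 10.8 CPM against 3.15, 1.13 and 2.26 (log2 fold change -2.18, SE 0.525; DESeq2, adjusted p = 0.0170; edgeR, adjusted p = 0.985). Krt14 had 14.0 and 10.4 CPM against 3.54, 0.877 and 3.68. Both keratins were lower in all deletion libraries than in either control, as were 10.2% of all tested genes. Trp63 itself did not share this separation. Over the list, 3 of 20 genes were lower without overlap and 1 was higher (9.43% of all tested genes). Perp, a desmosomal target of p63 and the gene of highest mean TPM in the list, was 145 and 47.2 against 51.5, 121 and 99.1 CPM.

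Relatives of the members were mostly silent. Of 19 family genes, Pax1, Pax4, Pax7 and Emx1 had 0 counts in all 5 libraries and 7 passed the low-count filter, with a median log2 fold change of -0.39, 5 lower and 2 higher. Gata2, a GATA factor of the urogenital mesenchyme and prostate, read 307 CPM in control replicate 1 and 40.1 to 51.8 CPM in the others. Its log2 fold change of -1.98 (SE 0.720; edgeR, adjusted p = 0.991) was 0.080 without control replicate 1. In that library Gata2 stood above Gata3 in TPM, at 22.6 against 6.81, and below it in the 4 others. Pax6 was highest in the same library, at 1.71 CPM against at most 0.345, and Gata6 was highest in deletion replicate 3, at 1.82 against 0.128 to 0.438.

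Genes whose profile over the 5 libraries was nearest to each member were found by the smallest root mean square difference in centred log2 CPM among 12489 named genes with a mean of at least 1 CPM. Foxa1 was nearest to Ahr, the aryl hydrocarbon receptor, at a difference of 0.125, and Ahr gave 13.2 and 31.1 CPM for controls, then 13.8, 22.1 and 55.4. Shh was nearest to Thsd4 (0.152) and Stbd1 (0.248), Trp63 to Klhl8 (0.102) and Coa4 (0.132), and Emx2 to Tox (0.242) and Exoc3l4 (0.253). Cdh16 was nearest to Lum, a proteoglycan of connective tissue, at 0.346, and Pax8 to the kinesin gene Kif5c at 0.440. Kif5c gave 2.99 and 146 CPM for controls, then 50.2, 42.8 and 10.9, with the same order of libraries as Pax8. The flat profiles of Gata3 and Pax2 had the closest neighbours, Fam189b at 0.0232 and Zfp386 at 0.0332. Members with little spread lie nearer to most genes on this measure, so its values are not comparable between members. The median difference to all candidates was 0.505 for Pax2 and 0.603 for Gata3, against 1.73 for Pax8. The nearest profiles are descriptions of 5 libraries that share depth and tissue differences.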

How the data were processed

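Total RNA libraries (TruSeq Stranded) of 5 mice were processed by the submitters with bcl2fastq 2.20.422, STAR 2.5.3a and RSEM 1.3.0 on GRCm38, per the submitters' processing notes. Annotation release and strand setting: not given in the sources used here. Per the file headers, the authors deposited RSEM expected counts, which are not normalized, and TPM, normalized for gene length within each library. Expected counts were rounded. All 5 libraries were fitted over the whole table with edgeR 4.0.16 in R 4.3.3 (filterByExpr, TMM, robust quasi-likelihood fit, group as the only term), with Benjamini-Hochberg adjustment over the 18615 genes passing the filter. TMM factors were 0.491 to 1.61. The fit was tested on simulated data. DESeq2 1.42.0, limma-voom (limma 3.58.1), limma on log2(TPM + 0.1), a replicate block, other filters and left-out libraries were alternatives. Positions came from GENCODE M21 and upstream sequence from RefSeq (GRCm38.p6); 279 gene IDs had no symbol. Named genes were all members, the 3 of smallest p and the 1 of highest mean TPM in each pathway list, the 2 of highest mean TPM in each marker list, overlapping genes and nearest profiles; other list and marker genes named were chosen after their values were seen. Genes of these lists that are not reported here were left out of the list counts. The members and lists were chosen with earlier results of these data known. P-values of the fits weigh a group difference against the spread of these 5 libraries within their groups. Limits from counts cover counting error only.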

Additional observations from a re-analysis of the deposited data

How the results depend on the processing

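Of the members, 0 were called under any alternative run. The number of genes called over the whole table, 0 in edgeR with all libraries (915 at an unadjusted p under 0.05), was 166 with DESeq2, 12 with limma on log2(TPM + 0.1), 8 with the replicate block, 0 to 48 when 1 library was left out, and 85 without control replicate 1 and deletion replicate 3 together. Members whose groups did not overlap, 0 with all libraries, numbered 0 to 5 with 1 library left out and 4 without that pair of libraries (67.8% of all genes there). Nothing in the labels ties the same replicate numbers together. Deviations from the group means correlated at 0.180 for number 1 and -0.142 for number 2 across genes. With 2 controls these deviations mirror each other, so the correlations cannot decide whether the libraries were paired. With the replicate block the log2 fold change was 1.40 for Pax8, -0.18 for Foxa1 and -0.058 for Shh, each of the opposite sign to the value without it. Deletion replicate 3 had no control of its number, so under the block it did not inform the group difference. Leaving that library out with no block also changed these signs, to 0.053, -0.24 and -0.45. Of the 104 member values under alternatives, 22 changed sign, and Emx2 kept its sign in 13 of 13. By limma-voom Pax2 was -0.011 and Pax8 0.97. On TPM every tested member was above 0, including Pax8 at 1.73, Cdh16 at 0.25, Gata3 at 0.59 and Trp63 at 0.76, which were below 0 in edgeR. The medians of all pathway lists rose as well, such as from 0.10 to 1.17 for the Wolffian list. That of the prostate bud list went from -0.32 to 0.75. With 1 library left out, the range was -0.20 to 0.25 for Pax2, -1.23 to 3.50 for Pax8, -2.43 to 1.08 for Cdh16, -0.24 to 0.99 for Foxa1, -0.45 to 0.34 for Trp63, -0.45 to 2.71 for Shh and -2.80 to 0.080 for Gata2. Without control replicate 1 and deletion replicate 3 together, Foxa1 was -0.67, Shh -1.24 and Gata2 0.14, and Cdh16 reached its smallest adjusted p, 0.0658 (up to 1.00 over its alternatives). The cause of these changes was not tested. A fit with 1 control left assumes that it varies like the other group. Summing Pax8 and Shh with their opposite-strand neighbours, an alternative chosen after seeing the data, gave -0.39 and 0.55. Precision is limited by the 2 controls.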
